A study of Mus musculus with 22 samples.

Results

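The genes described here are 9 genes known chiefly for work in germ cells, read by name from the gene tables: Meioc, Dazl, Ddx4, Mael, Sycp1, Sycp3, Stag3, Hormad1 and Slc25a31. They are 9 of the 55141 genes in the tables, and all 9 were found. They were chosen by function and by their levels in these groups, which had been seen, so their values are given as a description with no test of their own.

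The study measured poly(A) RNA in 22 libraries of mouse embryonic stem (mES) cells and of cultures grown from them, in 10 groups. The genotypes are wild type (wt) and Hox-/-, a line without Hox gene function. Wild-type and Hox-/- mES cells, 2 libraries each, were held in serum medium with 100 ng/ml LIF, 3 µM CHIR99021, which inhibits GSK-3, and the MEK inhibitor PD0325901 at 1 µM. Wild-type and Hox-/- endoderm differentiations, 3 libraries each, were adherent cultures given 100 ng/ml Activin A and 3 µM CHIR99021 and collected at 120 h. Gastruloids, which are free-floating aggregates of stem cells, were made with Activin A from both genotypes and with Chiron from wild type alone. Each gastruloid group has 2 libraries, collected at 96 h or 120 h. No gastruloid dose stands in the labels, which call every differentiated culture mixed cells. The labels do not say whether the Hox-/- line is 1 clone, or whether replicates were separate cultures, so each spread below is that between libraries and may be technical. All are bulk cultures, in which fewer cells of a type and less RNA per cell cannot be told apart.

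Germ cells carry genes that most other cells keep silent. During meiosis, homologous chromosomes are built along a protein axis made of cohesin and HORMA-domain proteins and are then joined by the synaptonemal complex, while RNA-binding proteins hold the cells in the meiotic programme. Many promoters of such genes hold an E-box, bound by MAX and MGA, or an element bound by E2F6. These factors belong to a variant Polycomb complex, PRC1.6, that keeps germline genes off in embryonic stem cells together with DNA methylation.

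To see how many of the genes hold these elements, the 250 bases upstream of each RefSeq transcription start (build GRCm38.p6) were searched on both strands for the E-box CACGTG and for the E2F-type element TCCCGC, whose reverse complement is GCGGGA. The motifs do not overlap each other. All 9 genes had a window, and Hormad1 had 2 that differ by their start. An E-box stood in 7 of the 9 genes, or 77.8%, against 6.86% of the 27025 genes with a RefSeq window. The E2F-type element stood in 5, or 55.6%, against 18.8%, and both stood in 4, or 44.4%, against 1.98%. Both elements contain the pair CG. The windows of the 9 genes had a median of 19 CG pairs and 65.6% G and C, against 6 and 52.4% over all RefSeq windows. The shares were not matched for base composition, so its part in them was not tested. The windows shown are those of Hormad1 and Sycp3, which hold both elements, of Sycp1, which holds the E-box alone, of Meioc, which holds the E2F-type element alone, and of Dazl, which holds neither. Each is written 5′ to 3′ on the strand of the gene, with the matched elements in capitals.
Hormad1, chr3:95559427-95559676, plus strand: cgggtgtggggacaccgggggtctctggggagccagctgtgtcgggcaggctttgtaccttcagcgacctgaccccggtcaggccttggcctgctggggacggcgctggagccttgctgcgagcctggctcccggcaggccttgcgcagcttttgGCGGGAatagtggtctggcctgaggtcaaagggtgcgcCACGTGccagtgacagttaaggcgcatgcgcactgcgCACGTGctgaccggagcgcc
Sycp3, chr10:88459337-88459586, plus strand: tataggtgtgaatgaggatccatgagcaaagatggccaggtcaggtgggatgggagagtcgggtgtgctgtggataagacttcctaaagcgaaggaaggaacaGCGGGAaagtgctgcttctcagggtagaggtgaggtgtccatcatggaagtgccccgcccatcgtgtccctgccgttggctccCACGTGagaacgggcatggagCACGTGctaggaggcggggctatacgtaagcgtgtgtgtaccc
Sycp1, chr3:102936101-102936350, minus strand: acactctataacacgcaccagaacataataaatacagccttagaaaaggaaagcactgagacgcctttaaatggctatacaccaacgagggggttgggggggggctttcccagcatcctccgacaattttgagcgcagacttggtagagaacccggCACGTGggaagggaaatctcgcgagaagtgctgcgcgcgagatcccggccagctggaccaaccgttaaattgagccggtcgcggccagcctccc
Meioc, chr11:102665335-102665584, plus strand: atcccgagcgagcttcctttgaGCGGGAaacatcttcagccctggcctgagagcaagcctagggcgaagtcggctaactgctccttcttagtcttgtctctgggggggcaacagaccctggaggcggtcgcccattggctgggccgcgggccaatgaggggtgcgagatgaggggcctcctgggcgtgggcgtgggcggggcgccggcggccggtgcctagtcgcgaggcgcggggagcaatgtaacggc
Dazl, chr17:50293621-50293870, minus strand: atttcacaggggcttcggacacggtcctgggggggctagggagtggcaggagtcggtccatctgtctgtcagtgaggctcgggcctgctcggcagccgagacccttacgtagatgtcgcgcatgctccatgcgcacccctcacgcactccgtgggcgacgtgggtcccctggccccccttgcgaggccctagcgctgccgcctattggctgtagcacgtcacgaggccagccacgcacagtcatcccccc
Counted from the first base upstream of the start, the E-boxes of Hormad1 began at -57 and -20 and its E2F-type element at -95. Those of Sycp3 began at -64 and -43, with the E2F-type element at -147. The single E-box of Sycp1 began at -94, and the single E2F-type element of Meioc at -228. The RefSeq start of Meioc lies 1869 bases inside the gene span of the deposited tables, so its window belongs to the downstream start. Ddx4 and Mael also held both elements, with E-boxes at -29 and -223, and Stag3 and Slc25a31 held the E-box alone, at -170 and -93. All 250 bases of the Stag3 window and 165 of the Ddx4 window are annotated as untranslated transcript. The E-boxes of both genes lie inside the gene spans, downstream of another annotated start. Both genes are counted among the 7 with an E-box, and Ddx4 among the 4 with both elements. A match is a run of letters and not a bound site.

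**Figure D1:**
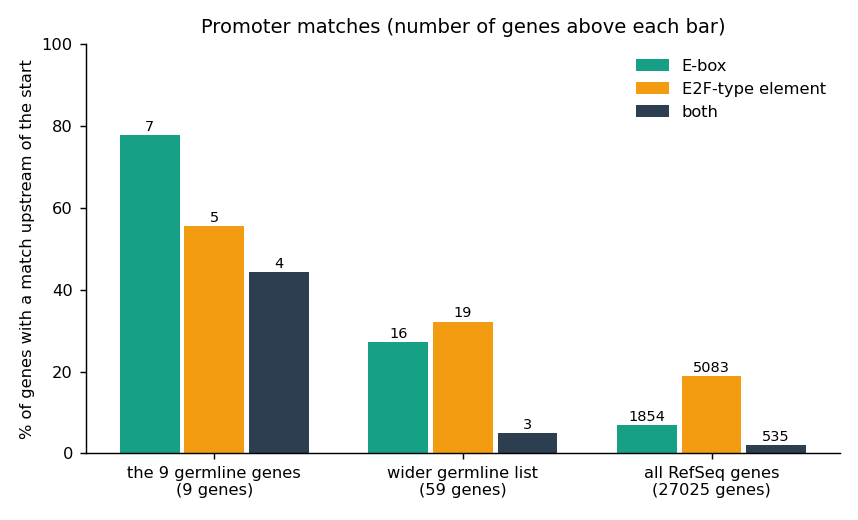
Share of genes (%, vertical axis) with a match to the E-box, to the E2F-type element, or to both in the 250 bases upstream of a RefSeq start, for the 9 germline genes, for a wider germline list and for all RefSeq genes; the number of genes stands above each bar. The E-box bar is at 77.8% for the 9 genes, 27.1% for the wider list and 6.86% for all genes. The 3 sets were not matched for base composition.

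The wider list in that plot holds 69 other meiotic, piRNA-pathway and germline genes, of which 68 matched the tables and 59 had a RefSeq window. Of those, 16 held an E-box, 19 the E2F-type element and 3 both. Genes of this list with and without the E-box were set side by side. From mES cells to endoderm, the 14 tested genes with an E-box had a median log2 fold change of -0.45 in wild type and -1.76 in Hox-/-, and the 32 without it had -1.58 and -2.09. Both sets can include genes with enough counts in only 1 of these cultures. Over all genes the wild-type medians were -0.02 with an E-box and 0.06 without it. The median difference of Hox-/- from wild type was 0.46 with it and 0.21 without it in mES cells, and -0.63 and -0.54 in endoderm. At 96 h in Activin A gastruloids it was -0.11 and -0.31, and at 120 h -0.10 and -0.76, over 8 genes with it and 22 without it.

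The libraries held 9.11 to 28.8 M counts (M, mega). Levels are in CPM, counts scaled to a mega of the library total, and 3 counts, taken here as the floor, stand for 0.104 to 0.329 CPM. The summed level of the 39 Hox genes was 30.4 to 35.7 CPM in wild-type mES cells and 0.448 to 1.34 in Hox-/- mES cells. In endoderm it was 828 to 877 against 22.5 to 28.6 CPM, and in Activin A gastruloids 625 to 1190 against 63.8 to 104. The Y-linked Ddx3y, Eif2s3y and Uty held at most 3 counts in every Hox-/- library and were present in every wild-type library, so the lines differ by more than the Hox clusters. The part of this in the differences below was not tested. The summed level of 10 pluripotency genes was 7906 to 7943 CPM in wild-type and 7536 to 7585 in Hox-/- mES cells, and 43.5 to 1701 in the other cultures. The summed level of 8 endoderm markers, among them Sox17, Foxa2 and Gata6, was 345 to 370 CPM in wild-type and 148 to 163 in Hox-/- endoderm, against 17.6 to 26.04 in mES cells, with none of the 8 at 0. In Activin A gastruloids it was 577 to 639 against 58.4 to 67.6 CPM at 96 h and 438 to 456 against 183 to 186 at 120 h, so the Hox-/- cultures were lower in these markers too, and their part in the differences below was not tested. Late gamete genes such as protamines and zona pellucida genes summed to at most 9.64 CPM over 13 genes, most of it from Zp3 in mES cells, and 9 of the 13 stood at 0 counts in each mES group.

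The label germline-restricted did not hold for all 9 genes. Stag3 and Meioc were above the floor in every library of every culture. The other 7 each stood at the floor, with no more than 3 counts in any library, in 1 to 5 of the 10 groups.

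**Figure D2:**
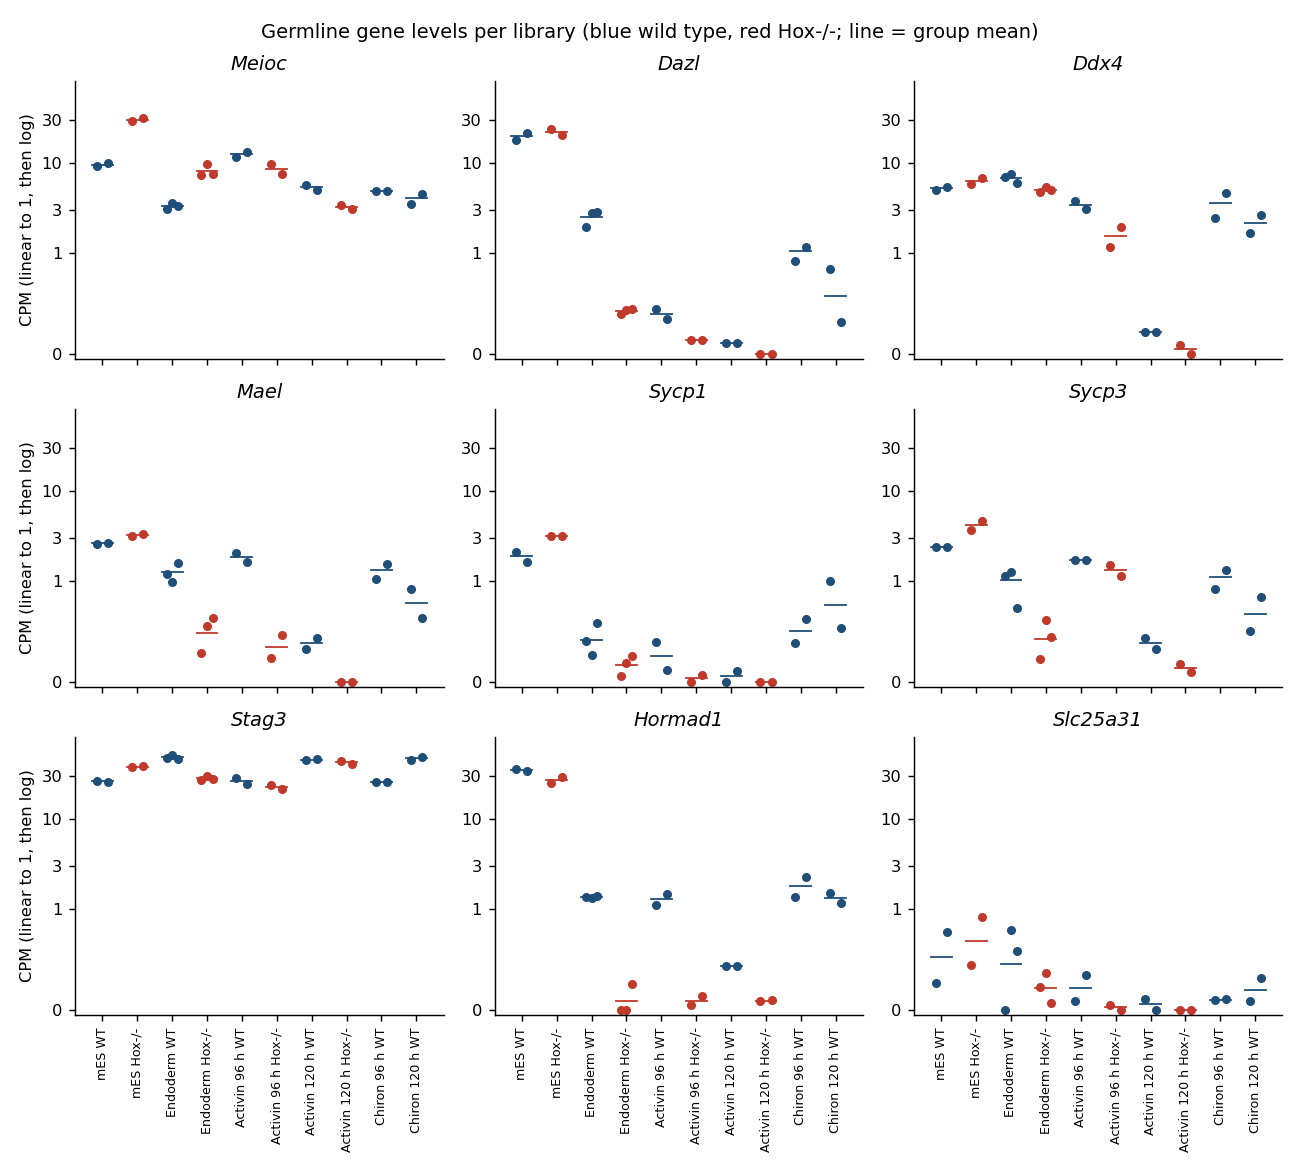
Level of each of the 9 genes (vertical axis, CPM, linear to 1 and logarithmic above) in each of the 22 libraries, by group (horizontal axis; blue wild type, red Hox-/-, line the group mean). Dazl and Hormad1 stand above 17 CPM in all mES libraries and below 3 CPM in all others, whereas Stag3 stays between 21.2 and 51.0 CPM throughout.

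Among the genes of the chromosome axis, Hormad1 had the widest range. It encodes a HORMA-domain protein of unsynapsed axes (chromosome 3, 95559677 to 95587671, plus strand). It was at 35.5 and 33.5 CPM in wild-type mES cells and at 24.9 and 28.9 in Hox-/- mES cells, so every Hox-/- library was lower. In wild-type endoderm the libraries were at 1.38, 1.32 and 1.39 CPM. In Hox-/- endoderm 2 libraries held 0 counts and the third held 4 counts, or 0.252 CPM. The wild-type endoderm level was 16.9-fold the Hox-/- level (56 counts against 4, exact 95% counting interval 6.25 to 64.2). Without the Hox-/- library that held counts, it was at least 7.67-fold higher against the floor of 3 counts per library. In Activin A gastruloids at 96 h, Hormad1 was at 1.11 and 1.47 CPM in wild type and at 0.0468 and 0.134 CPM in Hox-/-, which is 15.8-fold (63 counts against 3, interval 5.16 to 78.6). At 120 h it held 4 counts in each wild-type library and 1 in each Hox-/- library, and the interval of that ratio, 0.969 to 47.0, includes equal levels. Intervals here cover counting error only. Chiron gastruloids held 1.36 and 2.29 CPM at 96 h and 1.51 and 1.17 CPM at 120 h.

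Stag3 encodes the meiosis-specific STAG subunit of cohesin (chromosome 5, 138280240 to 138312393, plus strand). Its libraries were at 26.4 and 25.7 CPM in wild-type mES cells and at 37.4 and 38.1 in Hox-/- mES cells, so the genotypes did not overlap. In endoderm the order was the opposite, with 47.4, 51.0 and 46.3 CPM in wild type and 27.1, 29.96 and 27.3 in Hox-/-. The fitted log2 fold change of Hox-/- over wild type was 0.53 ± 0.0823 (SE) in mES cells and -0.77 ± 0.0669 in endoderm. In all 3 gastruloid series Stag3 was higher on the later day. Wild-type Activin A libraries were at 28.3 and 24.4 CPM at 96 h and at 44.9 and 45.5 at 120 h, and Hox-/- libraries were at 23.7 and 21.2 and then at 44.0 and 40.2 CPM. Chiron libraries went from 25.8 and 25.6 to 45.1 and 48.7 CPM. At 120 h the Hox-/- difference was 0.01 on the log2 scale with trimmed-mean scaling and -0.10 with scaling by total counts, so its sign depends on the scaling.

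Sycp1 and Sycp3 encode the transverse filament of the synaptonemal complex and a protein of its lateral element. Sycp1 (chromosome 3, 102818499 to 102936100, minus strand) was at 2.12 and 1.63 CPM in wild-type mES cells and at 3.14 and 3.19 in Hox-/- mES cells. Sycp3 (chromosome 10, 88459569 to 88473236, plus strand) was at 2.39 and 2.41 against 3.66 and 4.62 CPM. Both were higher in every Hox-/- mES library, with log2 fold changes of 0.73 ± 0.268 (SE) and 0.77 ± 0.238. In endoderm Sycp3 was at 1.14, 1.25 and 0.729 CPM in wild type and at 0.227, 0.615 and 0.441 in Hox-/-, with no overlap and a log2 fold change of -1.28 ± 0.395. Sycp1 was at 0.406, 0.264 and 0.584 against 0.0568, 0.185 and 0.252 CPM, which is 1 to 8 counts per library. In Activin A gastruloids Sycp3 was at 1.73 and 1.71 CPM in wild type and at 1.496 and 1.14 in Hox-/- at 96 h, and below 0.44 CPM in all 4 libraries at 120 h. Sycp1 held 0 counts in both Hox-/- libraries at 120 h, and 0 and 1 counts in the wild-type libraries, so both genotypes were at the floor. The readings of both genes are uncertain: 52.2% of the exonic bases of Sycp3 overlap the antisense gene Chpt1, and Sycp1 encloses the pseudogenes Gm42816, Gm33952 and Gm33866. The deposited FPKM of Sycp3 was 0 in 18 of 22 libraries although its counts reached 44 there, and that of Sycp1 was a median of 12.75 times its CPM per kilobase of exon.

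Dazl and Ddx4 encode RNA-binding proteins that mark germ cells, a translational regulator and the Vasa helicase. Dazl (chromosome 17, 50279395 to 50293636, minus strand) was at 17.9 and 21.5 CPM in wild-type mES cells and at 23.5 and 20.5 in Hox-/- mES cells, so the genotypes overlapped. In endoderm it was at 1.95, 2.77 and 2.85 CPM in wild type and at 0.398, 0.431 and 0.441 in Hox-/-, with 7 counts in each Hox-/- library. The endoderm libraries did not overlap, and the log2 fold change was -2.56 ± 0.300 (SE). In Activin A gastruloids Dazl was at 0.444 and 0.349 CPM in wild type and at 0.140 and 0.134 in Hox-/- at 96 h, and at 1 count per wild-type and 0 counts per Hox-/- library at 120 h. Chiron gastruloids were at 0.925 and 1.18 CPM at 96 h and at 0.838 and 0.318 CPM at 120 h.

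Ddx4 (chromosome 13, 112598333 to 112652475, minus strand) was at 5.05 and 5.36 CPM in wild-type and 5.75 and 6.72 in Hox-/- mES cells. It was at 6.90, 7.45 and 5.91 CPM in wild-type and 4.77, 5.35 and 4.98 in Hox-/- endoderm. The genotypes did not overlap in either culture, in opposite directions, with log2 fold changes of 0.26 ± 0.178 (SE) and -0.42 ± 0.138. At 96 h the levels in Activin A gastruloids were 3.73 and 3.06 CPM in wild type and 1.17 and 1.94 in Hox-/-, a log2 fold change of -1.12 ± 0.246. At 120 h all 4 Activin A libraries held 2 counts or fewer, while Chiron libraries of the same day held 20 and 25 counts, or 1.68 and 2.65 CPM. The 120 h ratio of Chiron over wild-type Activin A was 9.67 (45 counts against 4, exact 95% counting interval 3.53 to 37.0).

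Mael encodes Maelstrom, which takes part in piRNA-guided silencing of transposons (chromosome 1, 166201201 to 166238747, minus strand). It was at 2.59 and 2.64 CPM in wild-type mES cells and at 3.14 and 3.36 in Hox-/- mES cells. In endoderm it was at 1.22, 0.989 and 1.60 CPM against 0.284, 0.554 and 0.630, and in Activin A gastruloids at 96 h at 2.04 and 1.63 against 0.234 and 0.468. The Hox-/- libraries were thus all higher in mES cells, by 0.31 ± 0.244 (SE) on the log2 scale, and all lower in endoderm and at 96 h, with log2 fold changes of -1.36 ± 0.363 and -2.38 ± 0.396. At 120 h the wild-type libraries held 3 and 4 counts and the Hox-/- libraries 0, so wild type was at least 1.42-fold higher against the floor of 3 counts per library. Chiron gastruloids were at 1.07 and 1.56 CPM and then at 0.922 and 0.636 CPM.

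Meioc encodes a partner of the RNA helicase YTHDC2 that keeps germ cells in meiotic prophase (chromosome 11, 102663716 to 102682237, plus strand). It stood apart from the others in endoderm. In mES cells it was at 9.16 and 9.95 CPM in wild type and at 28.8 and 30.9 in Hox-/-, so every Hox-/- library was higher, with a log2 fold change of 1.64 ± 0.108 (SE). In endoderm it was at 3.08, 3.56 and 3.36 CPM in wild type and at 7.27, 9.66 and 7.43 in Hox-/-, a log2 fold change of 1.28 ± 0.158. In Activin A gastruloids the Hox-/- libraries were the lower ones, at 9.68 and 7.49 against 11.5 and 13.3 CPM at 96 h and at 3.45 and 3.09 against 5.73 and 4.94 CPM at 120 h. The log2 fold changes there were -0.45 ± 0.117 and -0.59 ± 0.235. Without the first Hox-/- library the 96 h value was -0.68. Of the genes within 500 kb of Meioc, 30 were tested in mES cells and 27 in endoderm. Their log2 fold changes ran from -0.37 to 0.37 and from -0.67 to 0.55, and in neither culture did any exceed Meioc. At 96 h and 120 h, 26 and 24 of 32 neighbours were above Meioc.

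Slc25a31 encodes an ADP/ATP carrier of male germ cells (chromosome 3, 40708855 to 40726096, plus strand). It held 0 to 12 counts in any library and reached 0.924 CPM at most, in a Hox-/- mES library. All 9 neighbouring pairs of groups in the order of its levels overlapped, so neighbours in that order cannot be told apart, while both mES groups lay above both Hox-/- Activin A groups. For the other genes, 3 of 9 neighbouring pairs overlapped for Dazl and Mael, 4 for Meioc and Ddx4, 5 for Sycp3, Stag3 and Hormad1, and 7 for Sycp1.

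**Figure D3:**
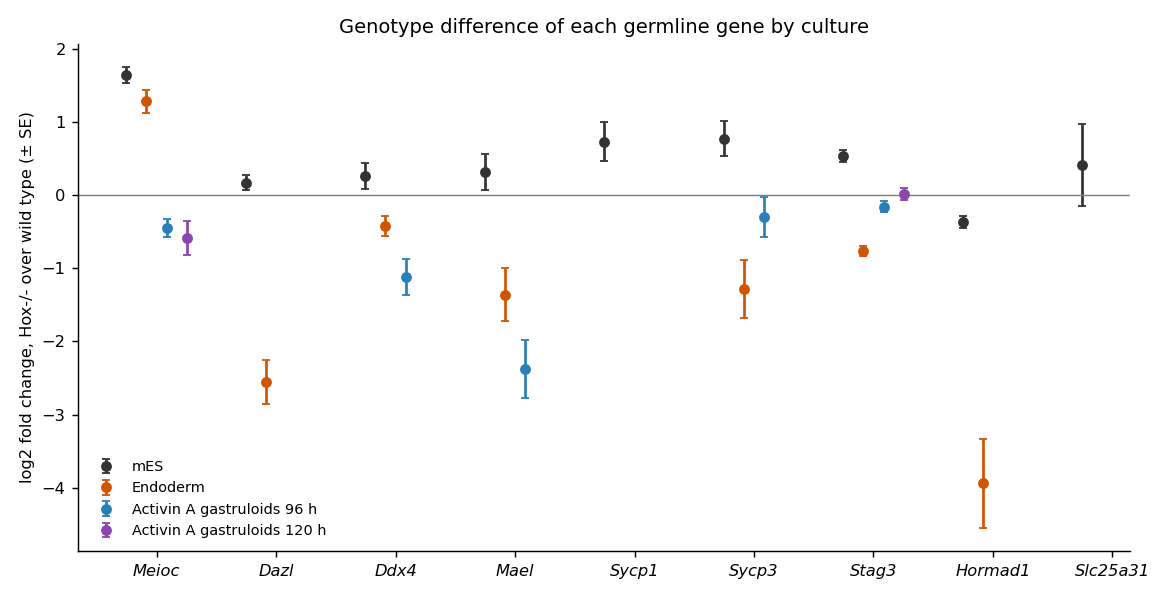
Fitted log2 fold change of Hox-/- over wild type (vertical axis; bars are ± SE) for each of the 9 genes in mES cells, endoderm and Activin A gastruloids at 96 h and 120 h, where the gene was tested and neither group was at the floor. Meioc is at 1.64 and 1.28 in mES cells and endoderm and below 0 in gastruloids, while the other 6 genes plotted for endoderm are below 0 there.

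Counting libraries over the 9 genes, the Hox-/- libraries were all higher than wild type for 6 genes in mES cells and all lower for 1, against 30.5% and 29.4% of all genes tested. In endoderm 1 gene was all higher and 7 were all lower, against backgrounds of 26.6% and 28.2%. All 9 were lower at 96 h in Activin A gastruloids, against 37.0% of all genes, and 7 were lower at 120 h, against 47.0%. These counts rest on the values by which the genes were chosen, and nothing is read from them. In the joint fit of mES and endoderm libraries, the change of the genotype difference from mES cells to endoderm was below 0 for every one of the 9, from -0.33 ± 0.199 (SE) for Meioc to -3.54 ± 0.579 for Hormad1, and it was below 0 for 48.4% of all genes. Of the 9, Meioc and Slc25a31 (-1.47 ± 1.06) did not pass the test that 24.1% of all genes passed, and nothing is read from this count either.

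Other germline genes were read to see whether the 9 stood alone. This wider list was also drawn up with earlier results of these data known, so its tests are not those of an unselected list. In mES cells 42 of the 68 wider-list genes passed the filter, 14 rose and 2 fell in Hox-/-, and 26 did not pass the test, against 23.2% of all 13631 genes called (12.4% higher, 10.8% lower). Their median log2 fold change was 0.25, and that of all genes was 0.00. Dmc1, the meiotic recombinase, was at 2.71 ± 0.502 CPM (SD, n = 2) against 1.21 ± 0.170, a log2 fold change of 1.15 (adjusted p = 0.00594, edgeR's quasi-likelihood test with Benjamini-Hochberg adjustment). Hfm1, a helicase of crossover formation, was at 1.55 ± 0.185 CPM against 0.637 ± 0.132 (log2 fold change 1.25, adjusted p = 0.024, edgeR). The 2 that fell, named after their values were seen, were Hsf2bp, which acts in meiotic recombination, and Rpl10l, a ribosomal protein of male germ cells with a close paralogue, with log2 fold changes of -0.22 and -0.39. The count of 16 was 6 with DESeq2, 0 with limma on FPKM, and 8 and 9 without the first or second wild-type library.

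In endoderm 39 wider-list genes were tested, and 24 fell and 3 rose in Hox-/-, against 46.2% of all genes called (23.1% in either direction). The median log2 fold change was -0.63, against 0.00 over all genes. Tdrd12, of the piRNA pathway, was at 1.31 ± 0.269 CPM (SD, n = 3) in Hox-/- and at 11.9 ± 2.37 in wild type, which is 9.04-fold (edgeR quasi-likelihood, Benjamini-Hochberg adjusted p = 1.7e-08). Rpl10l was 6.69-fold lower, Sohlh2, a transcription factor of early germ cells, 6.03-fold, Fkbp6, a co-chaperone of the piRNA pathway, 3.65-fold, and Hsf2bp 2.61-fold. The 3 that rose, named after their values were seen, were Spo11, which makes meiotic DNA breaks, Rbm46 and Ythdc2, with log2 fold changes of 0.98, 0.99 and 0.23. Ythdc2, which encodes the partner of MEIOC, did not pass the test with scaling by total counts.

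Of the wider-list genes, 29 were tested in both mES cells and endoderm, and 19 of them were above 0 in mES cells and below 0 in endoderm, as were 23.2% of the 12701 genes tested in both. The joint fit also keeps genes with enough counts in only 1 of the cultures. The change of the genotype difference between the cultures was tested there for 53 genes. It was below 0 for all 21 that passed, against 24.1% of all genes called (12.5% lower). The median over the 53 was -1.14 beside 0.01 over all genes. Keeping a gene through 1 group in which it was high can by itself favour a direction of this change. Nothing is therefore read from the 21 or from this median. Among the 21 were Dmc1, Tex15, Tdrd12, Hsf2bp, Sohlh2 and Piwil2.

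**Figure D4:**
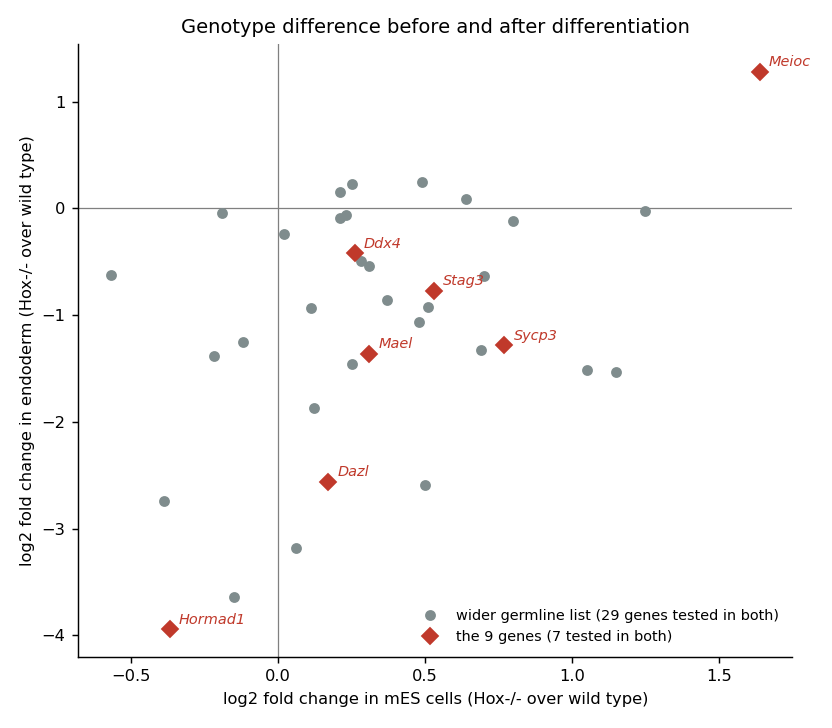
Log2 fold change of Hox-/- over wild type in mES cells (horizontal axis) and in endoderm (vertical axis) for the 29 wider-list genes tested in both (grey) and for 7 of the 9 genes (red, named). Most points lie in the lower right, above 0 in mES cells and below 0 in endoderm, and Meioc is above 0 on both axes.

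In Activin A gastruloids 34 wider-list genes were tested. At 96 h 11 fell and 2 rose in Hox-/-, or 38.2%, against 38.9% of all genes called (22.2% higher, 16.7% lower). The share called was thus near that of all genes. The median was -0.20 beside 0.03. The 5 that fell and lead by the fixed rule were Tdrd12 (4.65-fold), Tex14, of the bridges between germ cells (5.38-fold), Tdrd1 (2.92-fold), Tuba3a (2.76-fold) and Rpl10l, which held 2 counts in Hox-/-. Tuba3a has a near-identical copy, Tuba3b, that reads can be split with. The 2 that rose, named after their values were seen, were Tdrd5 and Tdrd7, with log2 fold changes of 0.50 and 0.68. At 120 h 11 fell and 3 rose, or 41.2%, against 50.4% of all genes called (24.9% higher, 25.5% lower). That share was below that of all genes. The median was -0.20 beside -0.02. The number called is no result about the list on either day. Of all genes called, 57.0% at 96 h and 49.4% at 120 h were higher, and 42.5% and 34.6% with scaling by total counts. At 120 h Tdrd12 was 13.9-fold lower (6 counts in Hox-/- against 76). Tex19.1, which guards germ cells against transposons, was 8.96-fold lower (7 counts against 57). These folds rest on few Hox-/- counts. Tdrd5 was 4.72-fold lower, and Rec8, the meiotic kleisin of cohesin, 2.12-fold. Piwil4, a piRNA-binding protein, was at 2.22 ± 0.699 CPM (SD, n = 2) in Hox-/- and at 0.599 ± 0.0704 in wild type (3.93-fold, adjusted p = 0.00045 by edgeR's quasi-likelihood test); Ythdc2 and Rbm46 rose with it. The genotype difference changed between the days for 7 of 34 genes, 2 upward and 5 downward, against 38.9% of all genes. Those were Tex15 and Ythdc2, and Tdrd5, Tdrd7, Rec8, Tex19.1 and Brdt. With scaling by total counts the split was 0 upward and 6 downward.

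**Figure D5:**
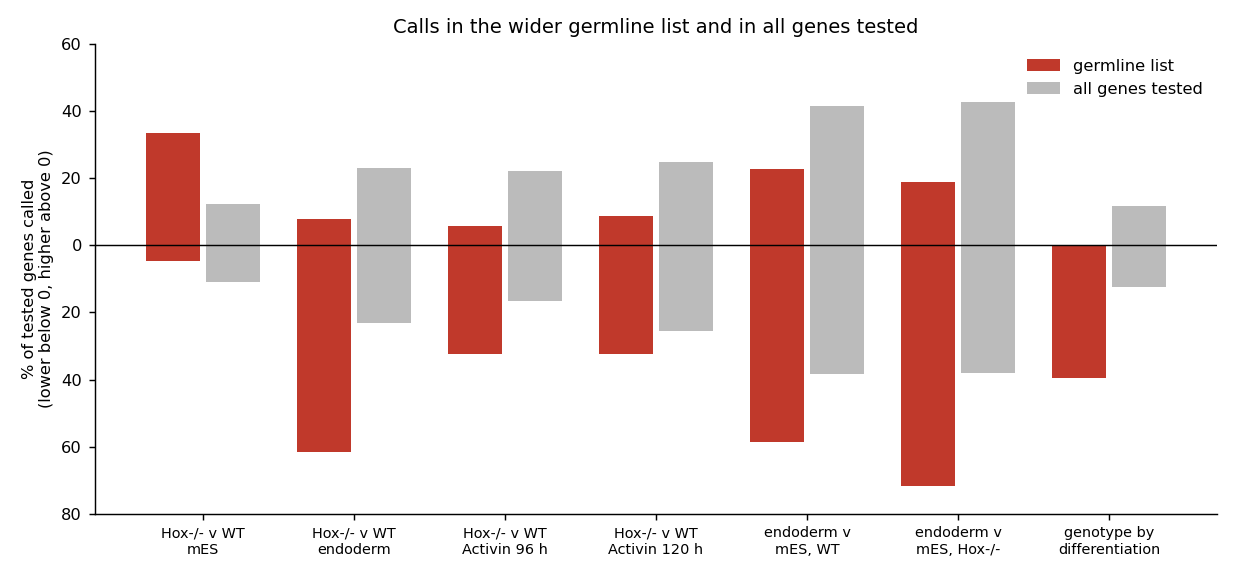
Share of tested genes called by edgeR (vertical axis, %, higher above the line and lower below it) in the wider germline list (red) and in all genes tested (grey) for each comparison. In endoderm 24 of 39 list genes were lower in Hox-/-, and the genotype-by-differentiation bar has 21 of 53 genes below the line and none above it.

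From mES cells to endoderm, 31 of 53 tested wider-list genes fell and 12 rose in wild type, and 38 fell and 10 rose in Hox-/-, against 79.9% and 80.6% of all genes called. Medians were -1.09 and -2.12 beside 0.07 and 0.10 over all genes. The joint fit keeps genes with enough counts in 1 culture alone: 42 passed in the mES fit, 39 in the endoderm fit and 29 in both. Keeping a gene through mES cells alone favours a fall, and through endoderm alone a rise. Nothing is therefore read from these directions or medians. In wild type Rpl10l was 27.2-fold, Tuba3a 29.2-fold, Sohlh2 13.8-fold, Hsf2bp 10.0-fold and Fkbp6 6.58-fold lower in endoderm. In Hox-/- the corresponding folds were 137 for Rpl10l, 326 for Tuba3a, 115 for Sohlh2 and 22.1 for Hsf2bp. Over all Hox-/- endoderm libraries, Tuba3a held 11 counts and Sohlh2 held 23. Of the 9 genes, 6 were lower in every wild-type endoderm library than in every mES library and 2 were higher, against 37.0% and 48.9% of all genes. In Hox-/- all 9 were lower, against 37.7% of all genes lower and 48.4% higher. These comparisons use the same mES libraries as the genotype comparison in mES cells, so they are not independent of it. Scaling by total counts moved the median log2 fold change of all genes from 0.067 to 0.185 for wild-type differentiation, from -0.02 to -0.132 for the 120 h genotype comparison and from -0.043 to 0.061 for time in Chiron gastruloids, and by less than 0.1 in the other comparisons.

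Genes whose products keep germline genes silent were read in the same comparisons. Tet1, whose product oxidises methylated cytosine, stands in the same list of 20 although it is not such a silencer. It is 1 of the 2 up in mES cells and 1 of the 4 down in endoderm. Of the 20 listed genes, 5 changed in Hox-/- mES cells (2 up, 3 down), 12 in endoderm (8 up, 4 down), 6 at 96 h (2 up, 4 down) and 17 at 120 h (15 up, 2 down). These stand beside 23.2%, 46.2%, 38.9% and 50.4% of all genes called, so that the share was near the background in mES cells and below it at 96 h. With scaling by total counts these were 1 up and 7 down at 96 h and 8 up and 4 down at 120 h. The de novo DNA methyltransferase genes went in opposite directions in all 4 comparisons. Dnmt3a rose, with log2 fold changes of 0.71, 0.34, 0.36 and 0.77 for mES cells, endoderm and the 96 h and 120 h gastruloids, and Dnmt3b fell, with -0.25, -1.13, -0.61 and -0.21. In endoderm Dnmt3b was at 90.7 ± 1.78 CPM (SD, n = 3) in Hox-/- and at 199.9 ± 7.29 in wild type (adjusted p = 2.56e-10, edgeR), and Dnmt3a was at 241 ± 1.77 against 192 ± 4.62. Tet1 was at 41.3 ± 6.77 against 67.0 ± 7.39 CPM (adjusted p = 6.58e-05, edgeR). Among the PRC1.6 genes, Max and E2f6 rose in endoderm by 0.18 and 0.31 on the log2 scale, L3mbtl2 and Pcgf6 fell by 0.22 and 0.24, and Mga had -0.05 and did not pass the test.

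Genes of primordial germ cells and pluripotency genes moved too. In mES cells 5 of 8 primordial germ cell genes rose in Hox-/-, against 12.4% of all genes higher, among them Dppa3 (18.0 ± 2.78 CPM against 9.97 ± 0.957, SD, n = 2) and Prdm1 (23.1 ± 2.76 against 13.7 ± 0.453). In endoderm 5 fell and 1, Ifitm3, rose, against 23.1% of all genes in either direction. Dppa3 was at 5.12 ± 0.305 CPM against 13.9 ± 1.65 (SD, n = 3; adjusted p = 3.54e-07, edgeR), and Prdm14 at 1.64 ± 0.509 against 5.10 ± 0.702. The summed level of the 8 genes, which Ifitm3 and Kit dominate, was 449 to 483 CPM in wild-type and 473 to 486 in Hox-/- endoderm. In Activin A gastruloids that sum was 263 to 265 CPM in wild type and 273 to 310 in Hox-/- at 96 h. At 120 h it was 133 to 134 against 54.0 to 55.2 CPM. Of the 7 tested there, 2 rose and 2 fell at 96 h, and 1 rose and 4 fell at 120 h, against 38.9% and 50.4% of all genes called. The summed level of 10 pluripotency genes was 946 to 1099 CPM in wild-type and 294 to 307 in Hox-/- endoderm, with none of the 10 at 0. It was 1679 to 1701 against 1186 to 1193 CPM at 96 h and 139 to 142 against 43.5 to 46.5 CPM at 120 h. In these differentiated cultures the pluripotency sum was thus lower in Hox-/-, in the same libraries in which most of the 9 genes were lower. In mES cells the sum was lower in Hox-/- too, at 7536 to 7585 against 7906 to 7943 CPM. There 6 of the 9 genes were higher in every Hox-/- library and 1 was lower. The part of pluripotency genes in the differences of the 9 was not tested. The summed level of 9 genes of the 2-cell-like state was 5.98 to 6.53 CPM in wild-type and 1.34 to 1.76 in Hox-/- mES cells, and 9.73 to 12.5 against 2.14 to 2.58 in endoderm.

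Activin A and Chiron gastruloids of wild type were compared at matched days. At 96 h 3 of the 9 genes were higher in both Activin A libraries and 1 was lower, against 45.4% and 35.0% of all genes. Meioc was higher with Activin A at 96 h, at 11.5 and 13.3 CPM against 4.87 and 4.93. At 120 h 1 gene was higher and 6 were lower with Activin A, against 38.5% and 31.1%. In the wider list 12 rose and 13 fell with Activin A at 96 h and 4 rose and 17 fell at 120 h, out of 41 tested, against 61.6% and 41.9% of all genes called. Tdrd5 was 7.96-fold higher with Activin A at 96 h and 5.80-fold at 120 h, while Piwil4 was 22.3-fold lower at 96 h. Stra8, the inducer of meiotic entry, was 4.67-fold lower with Activin A at 120 h. The 120 h count of 21 was 13 without the first and 13 without the second wild-type Activin A library. Those Activin A libraries also serve as the wild type in the genotype comparisons.

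Between 96 h and 120 h, 7 of the 9 genes were lower and 1, Stag3, was higher in wild-type Activin A gastruloids, against 39.8% and 47.5% of all genes. In Hox-/- 5 were lower and 1 higher, against 42.7% in either direction, and with Chiron 4 were lower and 1 higher, against 36.1% and 43.7%. Stag3 was the higher gene in all 3 series. In the wider list 20 genes fell and 3 rose in the same interval in wild type, out of 34. That is 67.6%, against 74.9% of all genes called. In Hox-/- 16 fell and 6 rose, or 64.7% against 72.4%, and with Chiron 15 of 41 fell and 8 rose, or 56.1% against 61.7%. All 3 shares were below those of all genes, so the number called is no result about the list. Of all genes called, 49.6%, 48.1% and 46.2% were higher at 120 h in wild-type Activin A, Hox-/- Activin A and Chiron. Tdrd5 was 10.6-fold lower at 120 h in wild type and 70.7-fold lower in Hox-/-, and Tex15 6.44-fold and 4.47-fold lower. Msh5, of the crossover machinery, was 2.31-fold higher at 120 h in wild type with Activin A and 2.69-fold with Chiron.

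The 9 genes differed in how alike their patterns were. Over the 10 group means, Pearson's r of each gene's log2 level with the mean of the other 8 was 0.938 for Sycp1, 0.935 for Slc25a31, 0.933 for Dazl, 0.916 for Mael, 0.904 for Hormad1 and 0.862 for Sycp3. It was 0.668 for Ddx4, 0.62 for Meioc and -0.167 for Stag3. Among 13267 other genes, the patterns most like the mean of the 9 were those of Slc12a8 (r = 0.983), Nlrp9b (0.976), Acp6 (0.97), Rnf17 (0.97) and Zfp988 (0.968). All these points share the same 22 libraries and the contrast of mES cells with every other culture, and the values are descriptions only.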

How the data were processed

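The authors deposited raw counts, as whole numbers per gene and library, beside FPKM tables that pair each gene with its symbol and position. The submitters' processing notes name cutadapt 1.16, STAR, Cufflinks 2.2.1 and mm10; the counting tool and its strand setting are not given in the sources used here, although the kit marks strand per the labels' protocols. Counts were tested with edgeR 4.0.16 (R 4.3.3): filterByExpr, TMM scaling, quasi-likelihood, Benjamini-Hochberg adjustment over all genes tested, called under 0.05. mES and endoderm tables were fitted apart, each gastruloid table with its 4 groups together, and differentiation in a joint mES and endoderm fit, in 13 comparisons. CPM are counts scaled by the library total; folds come from edgeR unless an interval is given.

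The 9 genes, the lists and the rules were chosen with earlier results of these data known. From the wider list, up to 5 called genes per comparison of at least 2-fold with no overlap of libraries and the smallest p could be named. Not all of these are named, and the rule did not fix which. Up to 3 genes of the silencing list could be named by the same rule with no fold minimum, and not all of them are. Other names were chosen after their values were seen. Likeness was ranked among genes whose highest group mean was at least 5 CPM. Promoter windows come from RefSeq (GRCm38.p6). Alternatives were RLE and total-count scaling, no filter, DESeq2 1.42.0, limma 3.58.1 on log2(FPKM + 0.1), the replicate number as a block, and leaving out each library. The statistics were also run on simulated counts, in which only well-counted genes were changed and the spread was fixed. That run does not cover genes near the floor or the spread between these libraries.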

Additional observations from a re-analysis of the deposited data

Results flagged for a closer look

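For some of the 9 genes the Hox-/- libraries lay above wild type in some cultures and below it in others. The libraries of the 2 genotypes did not overlap in any of the cultures given. Such non-overlap was common. The Hox-/- libraries were all higher for 30.5% of all genes tested in mES cells and 26.6% in endoderm. They were all lower for 28.2% in endoderm, 37.0% at 96 h and 47.0% at 120 h. On the log2 scale, Meioc was at 1.64 ± 0.108 (SE) in mES cells and 1.28 ± 0.158 in endoderm. In Activin A gastruloids it was at -0.45 ± 0.117 at 96 h and -0.59 ± 0.235 at 120 h. Ddx4 was at 0.26 ± 0.178 in mES cells, -0.42 ± 0.138 in endoderm and -1.12 ± 0.246 at 96 h. Mael was at 0.31 ± 0.244, -1.36 ± 0.363 and -2.38 ± 0.396 in the same order. Sycp3 was at 0.77 ± 0.238, -1.28 ± 0.395 and -0.30 ± 0.278 (-0.54 without the first Hox-/- library). Stag3 was at 0.53 ± 0.0823, -0.77 ± 0.0669 and -0.16 ± 0.0769. The values of Ddx4 and Mael in mES cells and of Sycp3 and Stag3 at 96 h did not pass the edgeR test and are not told apart from 0. The difference between mES cells and gastruloids was not tested for any of these genes. Since the genes were chosen with values known, no passed test is read for them here.

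In the wider germline list, the genotype difference itself changed between mES cells and endoderm for 21 of 53 genes (24.1% of all genes called) and between 96 h and 120 h in Activin A gastruloids for 7 of 34 (38.9% of all genes called), by the interaction terms of the edgeR fits. The second share is below that of all genes and is no result about the list.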

How the results depend on the processing

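Counts of wider-list genes called moved by over 1.5 times as follows. With DESeq2 they were 6 (against 16) in mES cells, 15 (25) for Activin A against Chiron at 96 h and 4 (7) for the change of the genotype difference with time. With limma on log2(FPKM + 0.1) 0 of the 42 mES genes were called, although 19 had an unadjusted p under 0.05; edgeR had 23 such genes. With limma the counts were 6 (13) for genotype at 96 h, 15 (25) and 11 (21) for Activin A against Chiron at 96 h and 120 h, 13 (22) for time in Hox-/- Activin A and 14 (23) for time in Chiron. Leaving out each library in turn gave 8 to 13 genes for genotype in mES cells, 21 to 25 in endoderm, 9 to 12 and 10 to 12 in gastruloids at 96 h and 120 h, 21 to 24 and 13 to 15 for Activin A against Chiron, 21 to 22, 17 to 21 and 17 to 24 for time in wild-type Activin A, Hox-/- Activin A and Chiron, 41 to 45 and 45 to 49 for differentiation in wild type and Hox-/-, 5 to 8 for the change with time and 19 to 23 for the change with differentiation. With 1 library left in a group, it is assumed to vary like the other groups. The cause was not tested. Over all genes, calls in mES cells went from 3168 to 1099 with DESeq2, 101 with limma, and 1477 and 1690 without the first or second wild-type library. They went from 6546 to 3647 and 2731 with DESeq2 and limma at 96 h, from 10655 to 6725 with limma for treatment at 96 h, and from 6544 to 4349 with limma for the change with time. With total-count scaling the share of calls that were higher went from 57.0% to 42.5% at 96 h and from 49.4% to 34.6% at 120 h.

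The replicate number was not taken to pair the samples: deviations of same-numbered libraries correlated at -0.243, 0.23 and 0.023 in endoderm, where there are 3 pairs, and at -0.104 to 0.304 in comparisons with 2 pairs, highest between Hox-/- mES cells and endoderm. With the replicate block, wider-list counts for genotype were 18 (mES cells), 25 (endoderm), 13 (96 h) and 14 (120 h), and no count moved by over 1.5 times. Among the 9 genes, the genotype difference of Stag3 at 120 h changed sign with scaling, and limma gave Sycp3 0.00 in endoderm, where its FPKM are 0. Slc25a31 in mES cells, at 0.41, was at -0.21 without the first wild-type and at -0.17 without the second Hox-/- library. The limma fit was not run for the joint mES and endoderm fit. At 120 h, where the Activin A libraries held 9.11 to 11.6 M counts, only Meioc and Stag3 held more than 3 counts in every Activin A library, and most differences of the other 7 were not detectable at this depth.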
